A study of Mus musculus with 2 samples.

Results

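De novo fatty acid synthesis, the making of new fatty acids from acetyl-CoA, was followed through 9 genes in the liver of apoE-KO mice: Acly, Acss2, Aacs, Acaca, Acacb, Fasn, Scd1, Elovl6 and Thrsp. They are 9 of the 27962 gene names on the array and were chosen by name, with the diet differences on these same arrays already known, so their diet differences are given below as a description, with no p for a gene and with counts of calls only beside the share of all probes. All mice were male, of the C57BL/6 strain and lacking apolipoprotein E, and were 10 weeks of age when feeding began. The control group received normal chow, and the other group that chow with 1.25% cholesterol added, called the high-Chol diet, each for 1 week. Total liver RNA was labelled with Cy3 and hybridized to 6 whole-genome arrays, 3 per diet, described by the labels as independent experiments with no number of mice per array. No wild-type mice were on the arrays, so every value belongs to a liver without apoE, and a p-value measures the spread between these arrays, which may in part be technical.

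Cytosolic acetyl-CoA for this pathway comes from citrate, cleaved by ATP citrate lyase (Acly), or from acetate, activated by Acss2. Acetyl-CoA carboxylases turn it into malonyl-CoA, fatty acid synthase (Fasn) builds palmitate from it with NADPH, Elovl6 lengthens the product and Scd1 introduces a double bond. In liver many genes of this pathway respond to SREBP-1c together with LXR, which senses oxysterols, and to the glucose-responsive factor ChREBP. SREBP-2 mainly drives the sterol branch from the same acetyl-CoA. This outline leaves out Aacs and Thrsp, which are described below.

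On the high-Chol diet, Aacs was 5.02-fold and Thrsp 3.71-fold lower than on normal chow, and all 3 high-Chol arrays lay below all 3 chow arrays for both, as they did for 13.3% of all probes with values on every array. Aacs encodes acetoacetyl-CoA synthetase, which makes the ketone body acetoacetate available for lipid synthesis, and Thrsp encodes Spot 14, a protein of lipogenic tissues that is induced by thyroid hormone and carbohydrate. The core enzymes Acly, Acss2, Acaca, Acacb, Fasn and Elovl6 had overlapping diets on every probe that was tested with all 6 values, and Scd1 was 1.35-fold higher with overlap.

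The promoters of Aacs and Thrsp are shown because these genes stood lower on every high-Chol array, and that of Fasn because it is the central enzyme and its diets overlapped. Each stretch is the 250 bases before the RefSeq gene start on GRCm38.p6, read 5′ to 3′ on the strand of the gene, and capitals mark an inverted CCAAT box (ATTGG), the motif bound by NF-Y. The stretches lie at chr5:125475623-125475872 (plus strand) for Aacs, chr7:97417551-97417800 (minus strand) for Thrsp and chr11:120824548-120824797 (minus strand) for Fasn.
Aacs: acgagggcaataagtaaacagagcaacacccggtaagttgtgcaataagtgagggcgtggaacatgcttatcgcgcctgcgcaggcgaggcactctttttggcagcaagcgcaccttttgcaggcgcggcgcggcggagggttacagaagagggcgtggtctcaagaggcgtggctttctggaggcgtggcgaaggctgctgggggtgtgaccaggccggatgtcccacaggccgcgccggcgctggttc
Thrsp: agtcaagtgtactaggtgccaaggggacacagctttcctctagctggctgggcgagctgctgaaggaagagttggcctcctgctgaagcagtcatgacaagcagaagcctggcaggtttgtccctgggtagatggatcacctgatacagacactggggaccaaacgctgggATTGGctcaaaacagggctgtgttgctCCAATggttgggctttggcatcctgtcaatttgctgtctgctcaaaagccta
Fasn: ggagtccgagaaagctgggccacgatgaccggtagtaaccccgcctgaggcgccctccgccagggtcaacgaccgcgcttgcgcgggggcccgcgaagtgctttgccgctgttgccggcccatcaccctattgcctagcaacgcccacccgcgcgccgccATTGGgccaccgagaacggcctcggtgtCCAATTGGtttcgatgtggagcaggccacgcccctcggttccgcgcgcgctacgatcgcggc
Of the 9 genes, 8 had a promoter in the RefSeq table, all but Scd1. Searched on both strands, ATTGG was present in 4 of the 8 (Acacb, Acss2, Fasn and Thrsp), against 33.8% of all 32851 promoter stretches. The Thrsp stretch held 2 copies, the Fasn stretch 3, of which the last 2 overlap by 2 bases, and the Aacs stretch none. The sterol regulatory element core TCACNCCAC was found in 0 of the 8 stretches and 1.05% of all, and the E-box CACGTG in 0 and 6.02%. A GC box (GGGCGG) was found in Acly and Acss2 and in 32.7% of all, and TATAAA in Acacb and in 12.4% of all. These matches describe the letters of a short window and carry no statement about a bound factor.

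Signals are log2 values with the 75th percentile of the array as reference, so 0 is the level of that percentile. They are compared between arrays for the same probe and not between probes. The exception is the summed signal of a gene list, in which the brightest probes weigh most. The percentile itself was 271 to 373 intensity units on slide 1, which held all 3 chow arrays and high-Chol array 1, and 762 to 799 on slide 2, which held high-Chol arrays 2 and 3. For those last 2 arrays slide and diet cannot be told apart, so the difference of each named gene is also given for high-Chol array 1 against the chow arrays of its own slide, which is also the estimate with slide as a block. The 6 hepatocyte markers were well above background on every array, with a summed signal of 1468 to 1735 times the percentile level on chow, against 1161 to 1274 on the high-Chol diet. Of 8 macrophage markers, the 7 with a value on every array summed to 153 to 182 on chow, against 386 to 521 on the high-Chol diet. Lyz2 and Cd5l made up most of each sum. Differences of the 8, 1 probe per gene, ranged from 0.28 (Csf1r, with overlap) to 1.83 (Marco), with a median of 1.12. Emr1, left out of the sum, differed by 0.71 on its brighter probe and by 0.02 on its other. Limma called 4 of the 8 higher, beside 2.36% of all probes, and 0 with slide as a block. Of 6 adipocyte markers, Adipoq and Lep were not well above background on any array and Cfd and Cidec were on all 6, and the list summed to 1.48, 1.59 and 1.6 on chow, against 0.551 to 1.95 on the high-Chol diet. Whether fewer cells of a type or less RNA per cell lies behind a lower signal cannot be told apart in whole liver, and the part of cell composition in the differences below was not tested. The Apoe probe read 1.66 to 3.81 on chow, against 3.18 to 3.56 on the high-Chol diet; whether it lies in the deleted stretch is not given in the sources used here, so it does not check the genotype.

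The 9 genes were covered by 18 probes, of which 13 passed the background filter in full for chow or for the high-Chol diet and entered the fit, with each gene keeping at least 1. Positions below come from the mm7 annotation of the array, which gives no exon, intron or UTR. A span above 60 bases means that the 60 bases of the probe are split over separate blocks of the genome.

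Among the acetyl-CoA suppliers, the main Acly probe A_51_P261718 (chr11:100586242-100586300) read 1.87, 0.61 and 1.43 on chow, against 1.20, 1.38 and 1.02 on the high-Chol diet. The high-Chol arrays lay inside the chow range, which the low second chow array widened. The difference was -0.10 ± 0.32 (SE, n = 3 arrays per diet) and -0.10 on slide 1. A second Acly probe, A_52_P373556, designed on the cDNA clone AK043466, was not well above background on any array.

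Acss2 gave similar patterns with 2 probes. Probe A_51_P488399 (chr2:155303248-155303310) read 4.44, 3.68 and 4.86 on chow, against 4.26, 4.01 and 2.74 on the high-Chol diet. Probe A_52_P566718 (chr2:155302999-155303058) read 2.85, 1.89 and 3.18 on chow, against 2.44, 2.53 and 1.33 on the high-Chol diet. For both, high-Chol array 3 was the lowest of all 6 and the other high-Chol arrays lay within the chow range. The differences were -0.66 ± 0.45 and -0.54 ± 0.43 (SE), but -0.07 and -0.20 on slide 1. The remaining 2 probes, on the clones AK003738 and AK085932, were not well above background on any array.

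Aacs was measured by a single probe, A_51_P453043 (chr5:124756651-124756710), which read 3.64, 3.72 and 4.66 on chow, against 1.71, 0.90 and 2.41 on the high-Chol diet. The lowest chow array stood above the highest high-Chol array, with a gap wider than 1 log2 unit. The difference was -2.33 ± 0.43 (SE, n = 3 per diet), a fold of 5.02 with 3.74 and 6.75 at 1 SE either way, and on slide 1 it was -2.29. The chow mean was 4.01 ± 0.57 and the high-Chol mean 1.68 ± 0.76 (SD).

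For Acaca, acetyl-CoA carboxylase 1, the cytosolic enzyme of fatty acid synthesis, 4 probes were on the array and the pair that was tested differed in sign. The first 30 of their 60 bases are given to show which transcripts are meant.
A_52_P318040: gaagatgatcataactcgtataacatccag
A_52_P595124: tcccatccaaacagagggaacatccccacg
Probe A_52_P318040 (chr11:84470765-84470824), designed on the cDNA clone BC023946, read -0.17, -0.56 and 0.26 on chow, against -0.32, -1.03 and -1.11 on the high-Chol diet. Its difference was -0.66 ± 0.29 (SE), but -0.16 on slide 1, where high-Chol array 1 lay within the chow range. Probe A_52_P595124, designed on NM_133360 and split over 12416 bases (chr11:84350405-84362820), read -3.08, -3.46 and -3.18 on chow, against -3.52, -1.93 and -1.86 on the high-Chol diet. Its difference was 0.81 ± 0.43, but -0.28 on slide 1. The positive value came from the arrays of slide 2 alone, since high-Chol array 1 was the lowest of all 6.
A further probe, A_52_P23177 (chr11:84363852-84364855), exceeded background on 2 chow and 2 high-Chol arrays and so was not tested. It read -3.53, -3.98 and -3.91 on chow, against -4.23, -4.91 and -4.53 on the high-Chol diet, with no overlap. The last, A_51_P439426, was not well above background on any array. The direction of Acaca thus depended on the probe and the slide.

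Acacb, acetyl-CoA carboxylase 2, whose malonyl-CoA restrains fatty acid entry into mitochondria, had 2 tested probes. Probe A_51_P239236 (chr5:113472402-113472462) read 4.55, 3.57 and 3.81 on chow, against 3.53, 3.62 and 2.72 on the high-Chol diet. The diets overlapped only through high-Chol array 2, which lay just above the second chow array. The difference was -0.69 ± 0.33 (SE) and -0.45 on slide 1. Probe A_52_P340167 (chr5:113406086-113410171), well above background on 2 of 3 chow arrays and all 3 high-Chol arrays, differed by -0.15 ± 0.22 and by -0.13 on slide 1. Its difference was -0.71 with a normexp background and -0.47 with quantile normalization.

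Fasn, fatty acid synthase, had 2 probes, 1 of them with flagged spots. The first 30 bases of both, designed on NM_007988, are given here.
A_51_P321126: gcttgggttttgacttttctgcagctgtca
A_52_P100252: attggtagggtacaaaggtgttcagaggat
Probe A_51_P321126 (chr11:120916191-120916250) read 5.91, 5.58 and 6.02 on chow, against 5.86 on high-Chol array 1, and its spots on high-Chol arrays 2 and 3 were flagged as non-uniform by the scanner software and left out. The difference of 0.02 ± 0.28 (SE) therefore rested on 1 high-Chol array and is also the slide 1 value. At their own values the flagged spots read 5.22 and 5.85, and with them the difference was -0.19. Probe A_52_P100252 (chr11:120915397-120915456) had no flagged spot and read 0.35, -0.91 and -0.16 on chow, against -0.37, -1.49 and -1.21 on the high-Chol diet. Its difference was -0.78 ± 0.39, but -0.13 on slide 1, where high-Chol array 1 lay inside the chow range. On slide 1, with every spot valid, neither probe moved by as much as the SD of the chow arrays (0.23 and 0.63).

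Of the enzymes that modify palmitate, Scd1, the delta-9 desaturase of liver, had 1 probe, A_52_P682382 (chr19:44288770-44288829). It read 6.90, 7.24 and 7.82 on chow, against 7.79, 7.84 and 7.62 on the high-Chol diet. The high-Chol values were close together (SD 0.12) at the top of the chow range (SD 0.47), and the difference was 0.43 ± 0.25 (SE), and 0.47 on slide 1. Elovl6 was measured by A_51_P463440 (chr3:129477684-129477743), with 3.50, 3.47 and 4.75 on chow, against 3.29, 2.57 and 3.82 on the high-Chol diet. The third array of each diet was its highest, and the difference was -0.68 ± 0.43 and -0.62 on slide 1.

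Thrsp, measured by A_51_P194099 (chr7:93448487-93448546), read 6.51, 6.44 and 7.05 on chow, against 4.82, 3.72 and 5.78 on the high-Chol diet. The high-Chol arrays lay below the chow arrays without overlap, but were spread wider (SD 1.03 against 0.34). The difference was -1.89 ± 0.48 (SE, n = 3 per diet), a fold of 3.71 with 2.65 and 5.19 at 1 SE either way, and it was -1.85 on slide 1.

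**Figure D1:**
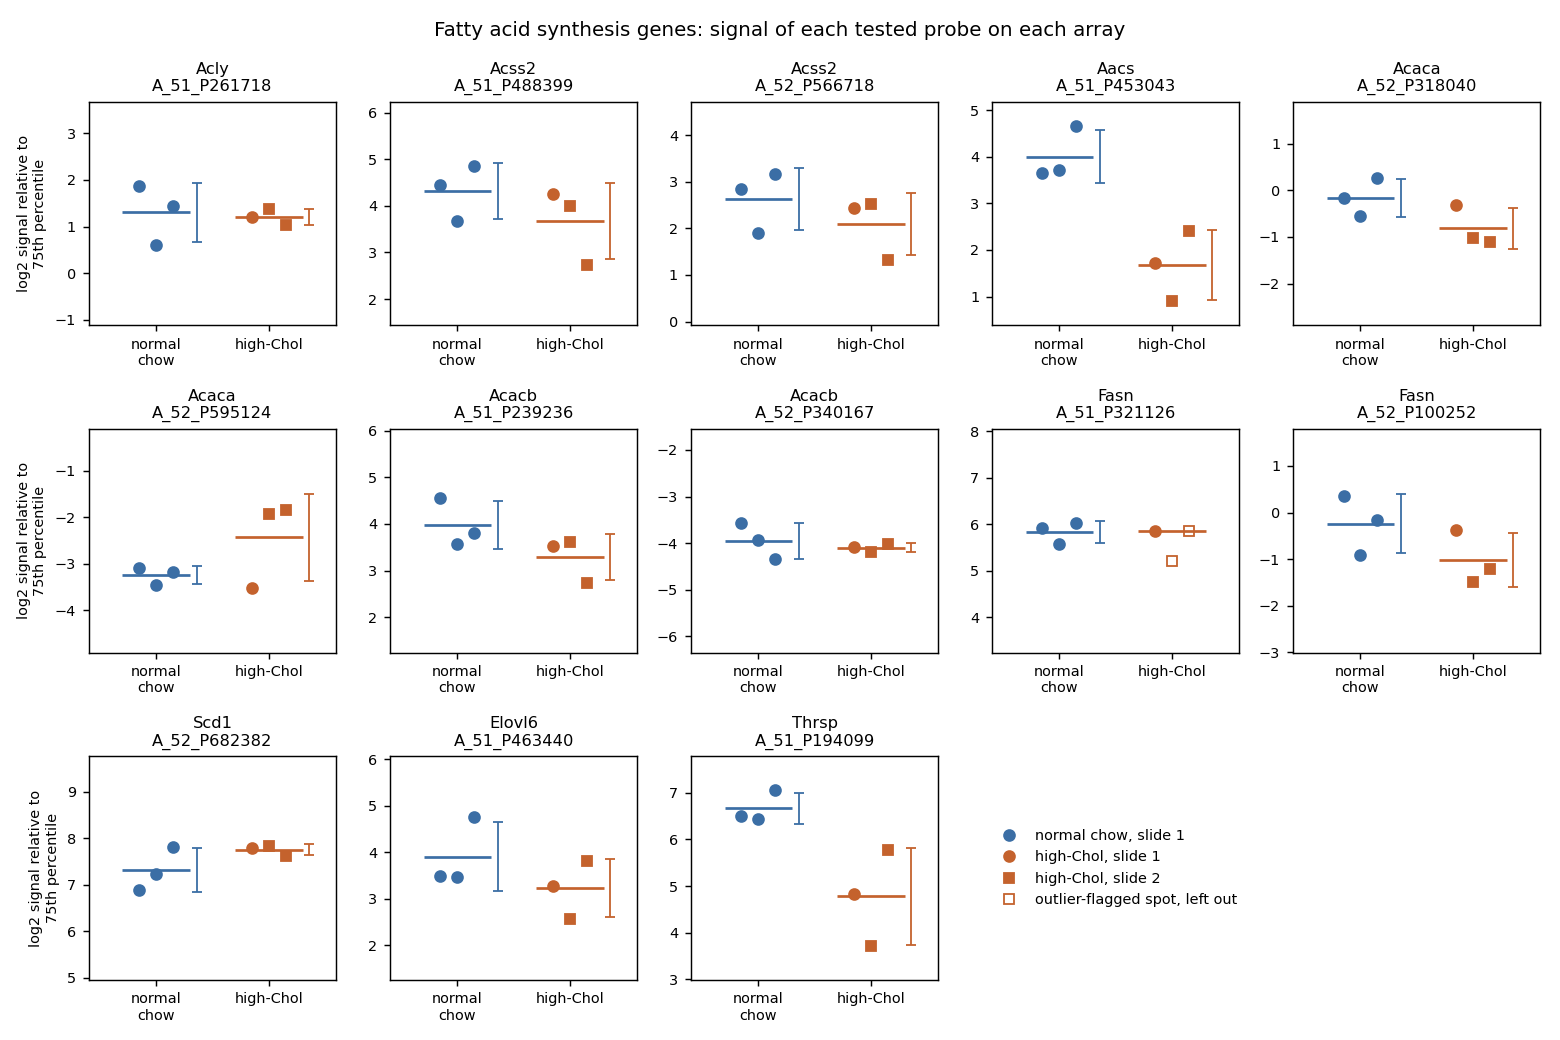
Log2 signal relative to the 75th percentile of the array (y axis) for the 13 tested probes by diet; circles are arrays of slide 1, squares arrays of slide 2, open squares outlier-flagged spots that were left out, lines the mean of the valid spots and bars the SD. Every panel spans the same number of log2 units; Aacs and Thrsp had no overlap between diets, as had 13.3% of all probes in the lower direction and 11.3% in the higher.

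Over the 13 tested probes, 10 were lower and 3 higher on the high-Chol diet, beside 52.8% of all 23917 tested probes lower, and their median difference was -0.66 beside -0.03 for all probes. With slide as a block, 11 were lower and the median was -0.16, beside -0.05 for all probes. More than 1.5-fold lower were 7 probes (background 5.81%) and more than 1.5-fold higher 1 probe, that of Acaca (background 14.1%). Of the 12 with values on all arrays, 2 were lower without overlap (background 13.3%) and 0 were higher without overlap (background 11.3%). Limma called 1 lower, that of Aacs (background 0.255%), and 0 higher (background 2.36%). At an unadjusted p under 0.05 it counted 2 lower, Aacs and Thrsp (background 8.42%), and 0 higher (background 11.6%). Because the genes were chosen with this contrast known, nothing is read from these counts. The Aacs call was lost with slide as a block, with a normexp background, with quantile normalization, without the filter on dim probes, with the methods' t-test and when any array but high-Chol array 1 was left out, while its difference stayed between -2.70 and -1.80 in every alternative run.

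**Figure D2:**
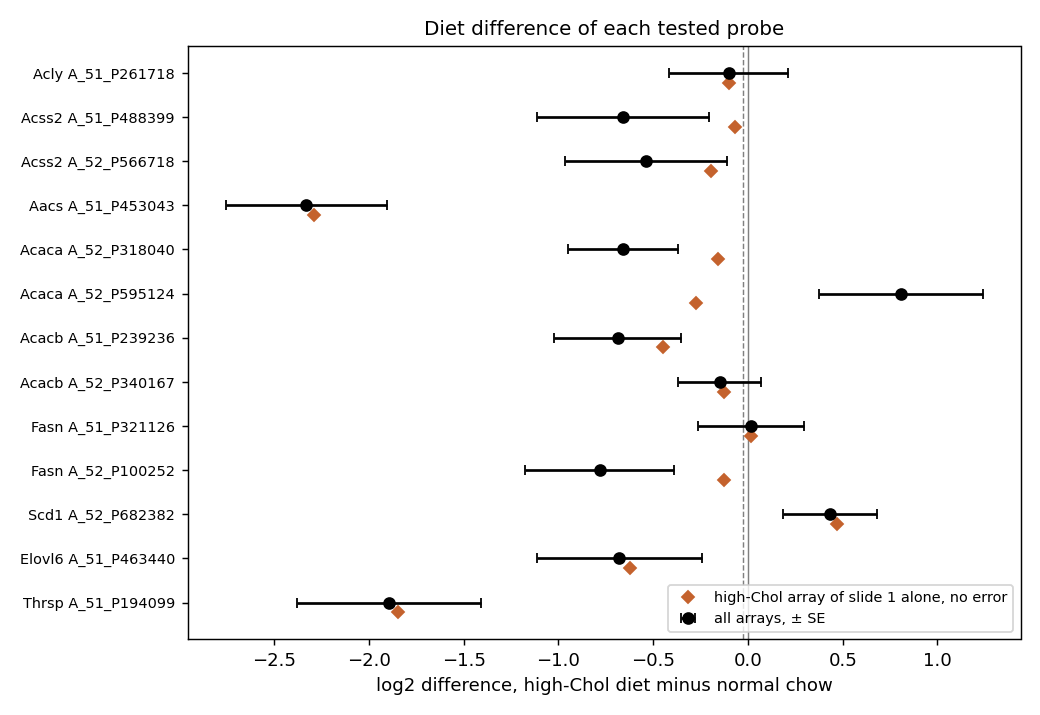
Log2 difference, high-Chol diet minus normal chow (x axis), for the 13 tested probes; circles with bars are the estimate from all arrays ± SE, diamonds high-Chol array 1 minus the chow mean of slide 1, and the dashed line the median of all tested probes (-0.03). Aacs (-2.33 and -2.29), Thrsp (-1.89 and -1.85), Elovl6 (-0.68 and -0.62), Scd1 (0.43 and 0.47) and Acly (-0.10 and -0.10) gave close values either way, whereas Acss2, Acaca and the second Fasn probe moved towards 0 or across it.

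The genes did not vary together as 1 block. With 1 probe per gene, the one with the highest signal that had all 6 values, the 36 pairs of genes had Pearson correlations over the 6 arrays from -0.55 (Acacb and Scd1) to 0.98 (Aacs and Thrsp), with a median of 0.43. With the diet means removed, Aacs, Elovl6 and Thrsp remained the closest set, at 0.97 for Aacs with Elovl6, 0.94 for Aacs with Thrsp and 0.85 for Elovl6 with Thrsp. In these 3 genes high-Chol array 3 was the highest and array 2 the lowest of the high-Chol arrays. In Acly, Acss2, Acaca, Acacb and Scd1, high-Chol array 3 was instead the lowest of its diet. Acss2 and Acaca correlated at 0.81 with the diet means removed, and Acacb ran opposite to Aacs at -0.64. The points of each correlation share the array, its slide and its scaling, and 6 arrays make these descriptions.

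**Figure D3:**
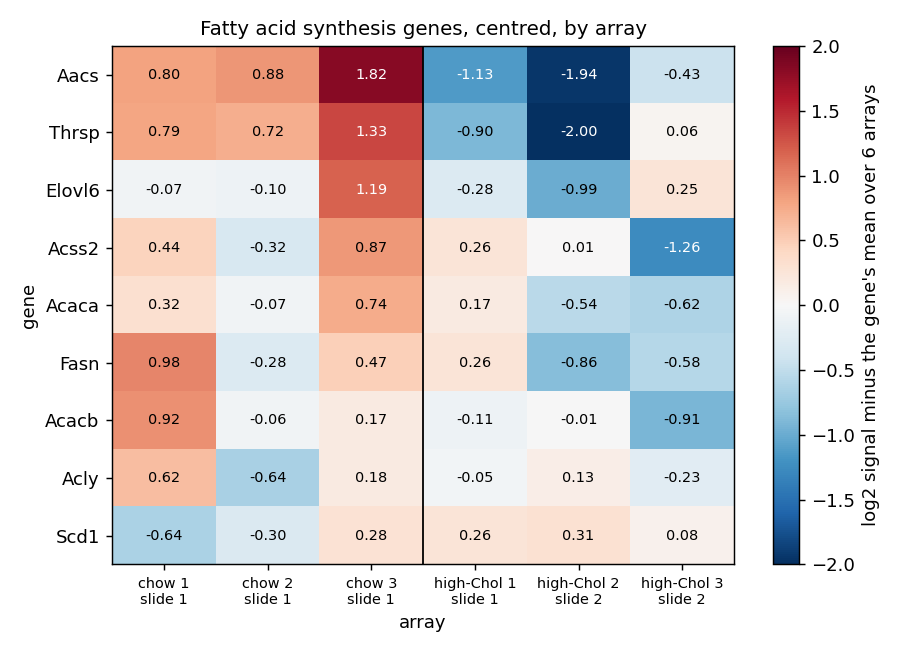
Log2 signal minus the mean of the gene over the 6 arrays (colour and printed value) for the 9 genes (rows) on the 6 arrays (columns, with the slide), 1 probe per gene; the line separates the diets. Aacs and Thrsp were between 0.72 and 1.82 on the chow arrays, and on the high-Chol arrays Aacs ran from -1.94 on array 2 to -0.43 on array 3.

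High-Chol array 3 was also the highest of its diet in the summed clock genes. The signal of the 12 genes was 118, 120 and 142 times the percentile level on chow, and 14.9, 15.9 and 71.5 on high-Chol arrays 1, 2 and 3. The clock output factor Dbp, named after its values were seen, read 6.57, 6.49 and 6.80 on chow, against 0.86, 0.86 and 5.64 on the high-Chol diet, and made up most of the sum on chow and on high-Chol array 3. Without it the other 11 summed to 23.3, 30.5 and 30.7 on chow, against 13.0, 14.0 and 21.5. Of the 11 clock genes tested, 9 were below 0, beside 52.8% of all probes. The 2 above 0, both named after their values were seen, were Arntl (2.45, and 3.36 on slide 1) and Clock (0.80, and 0.84 on slide 1). Limma called 0, with 6 lower and 2 higher at an unadjusted p under 0.05, beside 8.42% and 11.6% of all probes. Array 3, nearest to chow in both sums, was also nearest to chow in Aacs, Thrsp and Elovl6, and the part of the clock in those values was not tested. Sterol synthesis, which shares the acetyl-CoA pool, ran otherwise. Of its 20 genes, the 18 with a value on every array summed to 838, 573 and 711 on chow, against 451, 333 and 297 on the high-Chol diet, with high-Chol array 3 lowest. Of all 20, 19 were below 0, beside 52.8% of all probes, with a median difference of -1.35 (-0.99 on slide 1), and 6 were called lower by limma, beside 0.255% of all probes, against 0 with slide as a block. The 2 lists share no gene with the 9 described here.

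**Figure D4:**
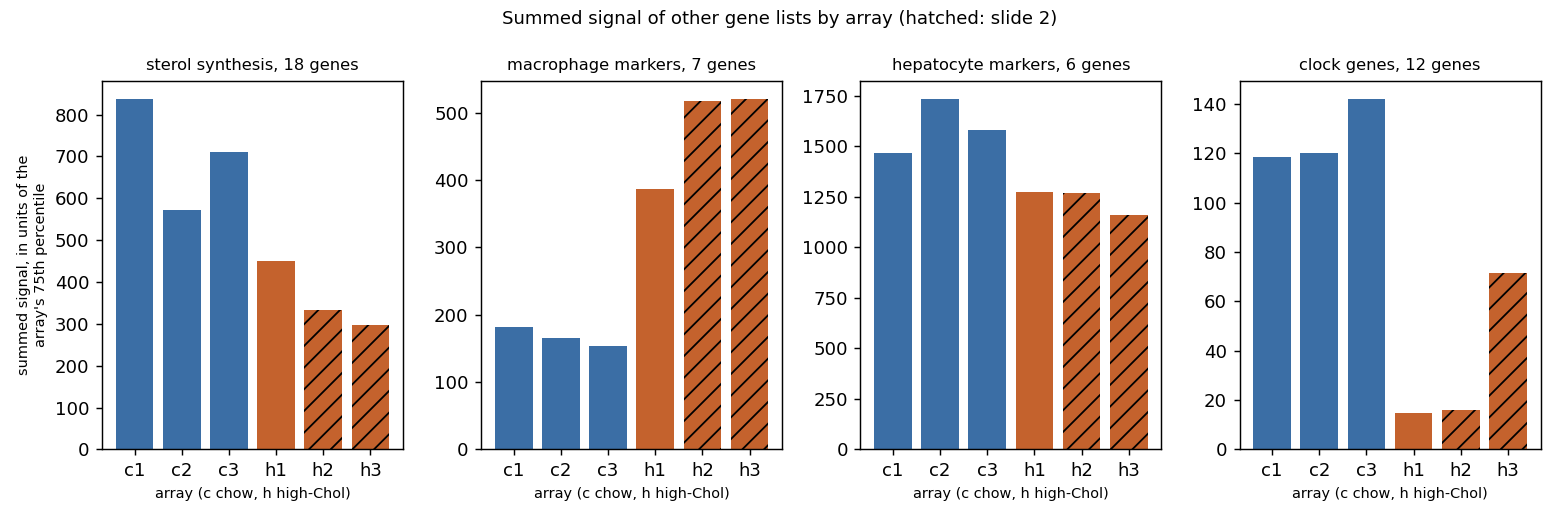
Summed signal, in units of the array's 75th percentile (y axis), of 4 gene lists on the chow (c) and high-Chol (h) arrays, with slide 2 hatched; bars start at 0. Clock genes stood at 14.9 to 71.5 on the high-Chol diet against 118 to 142 on chow, and macrophage markers at 386 to 521 against 153 to 182; genes with a value on every array were summed.

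The mean of the 9 centred genes was 0.46, -0.02 and 0.78 on the chow arrays, against -0.17, -0.66 and -0.40 in the high-Chol group. Of 19884 other probes that exceeded background on every array, the 5 genes most like this profile over the 6 arrays were Tshz1 (Pearson r 0.99), Tnfrsf10b (0.99), BC025833 (0.99), Slc27a2 (0.99) and Derl1 (0.99). These are the top of a long ranking over only 6 arrays, against a mean of genes that did not vary as 1 block. They are a description with no test. Tshz1 encodes a zinc finger protein and Tnfrsf10b a receptor of the death ligand TRAIL. The Tnfrsf10b signal was low, at -3.19, -3.79 and -3.04 on chow, against -3.79, -4.36 and -4.13 on the high-Chol diet. Slc27a2 encodes a very long-chain acyl-CoA synthetase of liver, and it read 3.10, 2.92 and 3.33 on chow, against 2.79, 2.64 and 2.77 on the high-Chol diet. Derl1 encodes a component of endoplasmic reticulum protein degradation and read 3.21, 2.98 and 3.38 on chow, against 2.97, 2.71 and 2.73 on the high-Chol diet.

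Around the 9 enzymes, 48 partner genes were listed, 46 were on the array and 44 could be tested with limma. Limma called 1 of the 44 higher, Scd2, a stearoyl-CoA desaturase paralogue, and 0 lower, beside 2.36% and 0.255% of all probes. The share called higher was thus near that of all probes. By sign alone, 29 lay below 0 and 15 above, beside 52.8% of all probes below. At an unadjusted p under 0.05, 4 were higher and 6 lower, beside 11.6% and 8.42% of all probes, and the median over the 44 was -0.16, beside -0.03 for all probes. That median was -0.03 with slide as a block, beside -0.05 for all probes, and 0.04 with a normexp background, beside -0.16. With quantile normalization it was -0.0024, beside -0.0016. Scd2 read 0.09, 0.15 and 0.32 on chow, against 1.40, 2.00 and 2.32 on the high-Chol diet, every high-Chol array above every chow array. The difference was 1.72 ± 0.25 (SE), a fold of 3.29, with a limma adjusted p of 0.0192, and it was 1.21 on slide 1. Its call was lost with slide as a block (limma adjusted p = 0.159), with a normexp background, without the filter on dim probes, with the methods' t-test and when any array but high-Chol array 1 was left out. The macrophage markers moved with it on the same arrays, as given above, and their part in it was not tested.

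None of the 11 regulators passed the test. The smallest unadjusted p among them was that of Ppargc1b, the coactivator PGC-1 beta, named after its values were seen. It read 1.85, 1.93 and 1.14 on chow, against 0.66, 0.39 and 0.87 under the high-Chol diet, with no overlap and a difference of -1.0 ± 0.25 (SE; limma adjusted p = 0.103) that was -0.98 on slide 1. Srebf1, the gene of SREBP-1, read 5.63 to 6.35 on chow, against 5.40 to 6.69 under the high-Chol diet, with a difference of 0.22 ± 0.36 (SE; limma adjusted p = 0.748) that was 0.47 on slide 1. Mlxipl, which encodes ChREBP, differed by -0.34 ± 0.24 (0.09 on slide 1) on its brighter probe and by 0.14 on its other, and Nr1h3, which encodes LXR alpha, by 0.01 ± 0.18 (0.08 on slide 1). Scaling to the median put Srebf1 at -0.02 and Nr1h3 at -0.22, but the median of all probes at -0.26 instead of -0.03, and both lay above 0 with a normexp background (0.48 and 0.30) and with quantile normalization (0.45 and 0.27). The INSIG proteins, which hold the SREBP complex in the endoplasmic reticulum, had values on opposite sides of 0. Insig1 read 1.86 to 1.94 on chow, against 1.73, 0.74 and 0.76 under the high-Chol diet, with a difference of -0.83 ± 0.28 (limma adjusted p = 0.181) that was -0.18 on slide 1. Insig2 differed by 1.14 ± 0.48 (limma adjusted p = 0.245) and by 1.49 on slide 1.

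In the supply of carbon and NADPH, 0 of 11 genes passed the test. The smallest p among them was that of Acss1, the mitochondrial acetyl-CoA synthetase, named after its values were seen. It read -3.83, -3.15 and -3.25 on chow, against -2.53, -1.62 and -1.65 under the high-Chol diet, with no overlap and a difference of 1.48 ± 0.30 (SE; limma adjusted p = 0.0568) that was 0.88 on slide 1. The Acss1 signal was well above background on 2 of 3 chow arrays and all 3 high-Chol arrays. With a normexp background its difference was -0.03, so the rise depended on how background was removed. G6pdx, which opens the oxidative pentose phosphate pathway, read -0.10 to 0.49 on chow, against 0.85 to 1.34 under the high-Chol diet, with a difference of 0.91 ± 0.22 (limma adjusted p = 0.0966) that was 0.72 on slide 1. Pgd, the next NADPH-producing dehydrogenase of that pathway, differed by 0.39 ± 0.25 (0.55 on slide 1) on its brighter probe and by -0.11 on its other, and Me1, malic enzyme, by -0.45 ± 0.21 (-0.29 on slide 1). The citrate carrier Slc25a1 read 4.22 to 4.35 on chow, against 3.58 to 4.14 under the high-Chol diet, with a difference of -0.50 ± 0.19 (limma adjusted p = 0.215) that was -0.15 on slide 1. Liver pyruvate kinase, Pklr, differed by -0.98 ± 0.48, but by -0.05 on slide 1.

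The 9 genes that control acetyl-CoA carboxylase ranged from -0.33 to 0.44. Mid1ip1, a paralogue of Thrsp that activates acetyl-CoA carboxylase, read 3.60 to 4.21 on chow, against 3.39 to 4.88 on the high-Chol diet. Its difference of 0.31 ± 0.37 (limma adjusted p = 0.651), and 0.40 on slide 1, had the opposite sign to that of Thrsp. The 5 genes of mitochondrial fatty acid synthesis on the array ranged from -0.26 to 0.37.

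**Figure D5:**
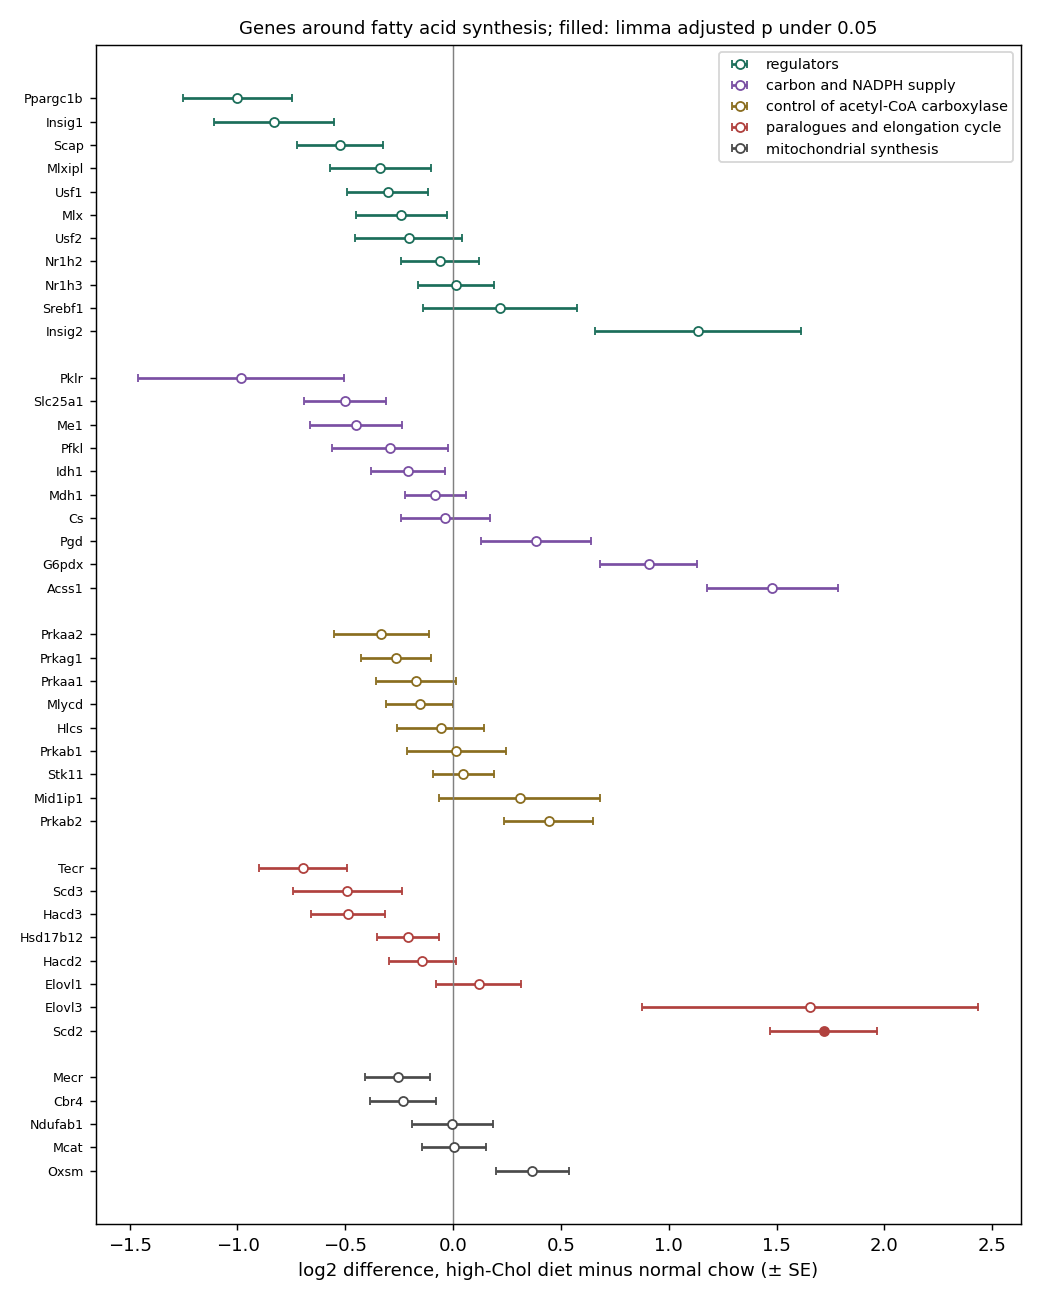
Log2 difference, high-Chol diet minus normal chow (x axis, ± SE), for 43 of the 44 tested partner genes, 1 probe per gene, coloured by group; a filled circle passed limma at an adjusted p under 0.05. Scd2 (1.72) is the only filled circle, the regulators run from Ppargc1b (-1.0) to Insig2 (1.14), and Srebf1, Mlxipl and Nr1h3 lie between -0.34 and 0.22.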

How the data were processed

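Liver RNA of 3 normal chow and 3 high-Chol experiments was measured on 1-colour Agilent arrays. The authors deposited the spot intensity tables of Agilent Feature Extraction (version 9.1 in the submitters' notes; the headers give 9.5 for slide 1 and 9.1 for slide 2), with a background-subtracted processed signal, and a table of log2 values, 1 column per diet, which per the methods was normalized and filtered in GeneSpring. The median of that deposited log2 table was -0.00185 for chow and -0.27 for the high-Chol diet; its scale and centring are not stated, and its differences correlated with those used here at 0.99 across probes, which are not independent replicates.

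From the intensities, log2 of the processed signal minus the 75th percentile of the 43379 non-control spots of each array was taken. Outlier-flagged spots (75 to 196 per array) were left out and spots of a probe averaged. Probes were kept if every array of one or the other diet lay well above background (23917 of 41174). The model was 2 diets without a covariate in limma 3.58.1 (R 4.3.3; lmFit, eBayes), with Benjamini-Hochberg adjustment and a threshold of 0.05, and the fit was tested on simulated data. The number of arrays limits the precision; an exact permutation test of 3 against 3 cannot go below 0.1. Of 125 listed genes, 123 were on the array, 10 under another name (RefSeq synonyms); partner genes used their probe with the highest mean. Promoters are those of RefSeq, GRCm38.p6.

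Named are all 9 members with every probe, fixed partners (Srebf1, Mlxipl, Nr1h3, Insig1, Insig2, Me1, Slc25a1, G6pdx, Pgd, Pklr, Mid1ip1, Scd2 and 1 more that is not reported here) and any other that passed the test, Apoe, Ppargc1b, Acss1 and 3 clock genes chosen after their values were seen, the 5 genes most alike, and the lists by counts, medians and sums. Members and lists were chosen with earlier results of these data known. Alternatives were a normexp background (offset 50), median scaling, quantile normalization, other filters, outlier spots kept, slide as a block, slide 1 alone, each array left out, a trended and robust prior, the methods' t-test, 1 probe per gene and the deposited table.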

Additional observations from a re-analysis of the deposited data

How the results depend on the processing

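The median difference of the 13 tested probes was -0.66 and stayed below 0 in every alternative run. It came to -0.32 with a normexp background and -0.16 both with slide as a block and with slide 1 arrays alone, and leaving out each array gave -0.89 to -0.19, the last without high-Chol array 3. Scaling to the median shifted the median of all probes from -0.03 to -0.26, so the members' -0.90 there is read against it, and a normexp background shifted it to -0.16. The count of member probes called lower, 1 of 13, was 0 with a normexp background, quantile normalization, no filter on dim probes, slide as a block or the methods' t-test. At an unadjusted p under 0.05 these settings had 1 of 13, 2 of 13, 3 of 18, 2 of 13 and 2 of 13 lower. Beside them stood 64 of 23917, 1957 of 23917, 1768 of 41173, 763 of 23915 and 1873 of 23917 of all probes. Scaling to the median called 2 of 13 lower, which added Thrsp, beside 110 of 23917 probes. Leaving out each array gave 0 to 1 lower and 0 to 1 higher. The latter was Acaca A_52_P595124 without high-Chol array 1, 1 of 12 member probes, beside 3887 of all 25289 probes called higher. That Acaca probe was also below 0 with a normexp background (-0.26). Acly was above 0 with a normexp background, quantile normalization or without chow array 1, within -0.45 to 0.18 in all. Fasn A_51_P321126 ran from -0.44 in the deposited table to 0.60 with a normexp background, and Thrsp from -2.40 to -1.37.

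Over all probes, limma called 564 higher and 61 lower. These were 0 and 0 with a normexp background, 4 and 0 without the filter, 1 and 0 with slide as a block, and 1 and 0 with the methods' t-test. They were 407 and 110 with scaling to the median, 444 and 40 with quantile normalization and 560 and 120 with a trended and robust prior. Leaving out each array gave 38 to 3887 higher and 0 to 998 lower, with both highest without high-Chol array 1. Of the partner genes, called higher were 0 with a normexp background, no filter, slide as a block or the methods' t-test. With scaling to the median or the trended prior 2 of 44 were, beside 407 and 560 of 23917 probes. Both settings added Acss1 (limma adjusted p = 0.0409 and 0.0469), whose difference was -0.03 with a normexp background. Leaving out each array gave 0 to 3 higher and 0 to 4 lower of the partner genes. Both were highest without high-Chol array 1, beside 3887 and 998 of 25289 probes. The causes were not tested. No paired analysis was possible because the labels number the experiments of each diet 1 to 3 in 1 title and do not say which array holds which number. Signal over background limits the split Acaca and Acacb probes, and 3 arrays per diet limit all values.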
